A study of Mus musculus with 8 samples.

Results

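Cornified envelope genes were examined in mouse keratinocytes (KCs), the epithelial cells of the epidermis, that had been kept in culture for 1 week or for 3 weeks. The genes were chosen by name among those annotated as protein coding, and the rule uses no measured value. They are the Sprr genes, the numbered Lce genes, and the genes Lor, Ivl, Flg, Flg2, Hrnr, Rptn, Tchh, Crnn, Krtdap, Cnfn, Sbsn, Dmkn, Tgm1, Tgm3, Tgm5, Casp14, Asprv1, Cdsn, Calm4, Ppl and Evpl. Together they make 57 of the 41457 genes in the deposited tables, with 15 Sprr and 21 Lce genes among them. KCs came from the tail epidermis of adult C57BL/6J mice that were wildtype, were left untreated, and grew in serum-free medium with little calcium, in which KCs largely keep a basal character. At each time 4 samples were sequenced, numbered as replicates 1 to 4, from poly(A) RNA with single reads of 59 bases. The study states that the same batches of KCs were used at both times. The labels tell neither how many mice gave a sample nor which samples of both times came from the same preparation. The main test ignores this pairing, and its p-values measure the spread between these samples.

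The cornified envelope is a sheet of crosslinked protein that replaces the plasma membrane when a KC dies and becomes a corneocyte. Periplakin and envoplakin form its first scaffold with involucrin, transglutaminases join loricrin, small proline-rich proteins (SPRRs) and late cornified envelope proteins (LCEs) to it, and filaggrin and its relatives bind keratin filaments inside the cell. Many of these genes lie side by side in the Epidermal Differentiation Complex (EDC), and they are normally switched on in suprabasal KCs as calcium rises.

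Of the 57 genes, 44 lay on chromosome 3 between bases 92080271 and 93449077 of GRCm38, a stretch of 1368.81 kb that runs from Lor to Tchh and holds all Sprr and Lce genes. The other 13 were spread over other chromosomes, with Krtdap, Sbsn, Dmkn and Cnfn on chromosome 7. SPRR proteins are built of short proline-rich repeats, whose kind and number differ between the genes. The coding sequences of a gene from each of the larger SPRR groups show this, both taken from GENCODE M21 transcripts on GRCm38, with one repeated unit, of the 4 codons CCN, GAG, CCN and TGN, in capitals (proline, glutamate, proline and mostly cysteine). Sprr1b (chromosome 3, 92436809 to 92438789, minus strand) held 12 such units in 462 coding bases, and Sprr2h (chromosome 3, 92385685 to 92387324, plus strand) held 5 in 327. The first 300 coding bases of each, all exonic, are shown, which cover 7 of the units of Sprr1b and all of Sprr2h.
Sprr1b: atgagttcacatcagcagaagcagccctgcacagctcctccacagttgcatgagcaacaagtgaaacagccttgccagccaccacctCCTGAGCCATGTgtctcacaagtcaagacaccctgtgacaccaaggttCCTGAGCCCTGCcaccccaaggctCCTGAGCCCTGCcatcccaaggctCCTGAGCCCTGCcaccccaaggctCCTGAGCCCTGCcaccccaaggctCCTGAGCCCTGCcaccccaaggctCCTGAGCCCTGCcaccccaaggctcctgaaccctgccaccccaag
Sprr2h: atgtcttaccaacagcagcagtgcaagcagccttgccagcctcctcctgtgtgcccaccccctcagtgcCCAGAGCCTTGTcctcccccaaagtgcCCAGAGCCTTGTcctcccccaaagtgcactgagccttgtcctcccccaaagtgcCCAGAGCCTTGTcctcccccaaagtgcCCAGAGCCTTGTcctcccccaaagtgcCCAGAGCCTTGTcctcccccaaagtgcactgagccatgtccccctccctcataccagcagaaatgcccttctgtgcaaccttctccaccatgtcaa
Sprr1a held 11 units, Sprr2d 5, and Sprr2e and Sprr2f 4 each. Sprr2a1, Sprr2a2, Sprr2a3, Sprr2k and Sprr3 held 1, and Sprr4 held 0. Proline took between 17.1% of the codons in Sprr4 and 42.6% in Sprr2h.

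How far reads can be assigned within the family depends on how alike the genes are. The first 60 coding bases of some Sprr2 genes are given with bases that differ from Sprr2a1 in capitals.
Sprr2a1: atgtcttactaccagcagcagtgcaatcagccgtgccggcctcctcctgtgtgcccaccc
Sprr2d: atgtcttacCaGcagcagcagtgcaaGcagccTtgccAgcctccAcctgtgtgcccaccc
Sprr2f: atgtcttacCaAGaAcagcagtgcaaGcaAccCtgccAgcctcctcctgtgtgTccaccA
Sprr2h: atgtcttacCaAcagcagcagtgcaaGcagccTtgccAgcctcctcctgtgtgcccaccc
Sprr2k: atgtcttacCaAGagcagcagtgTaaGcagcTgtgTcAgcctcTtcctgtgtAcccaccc
In this stretch 6 bases differed in Sprr2d, 10 in Sprr2f, 5 in Sprr2h and 10 in Sprr2k, while Sprr2a2 and Sprr2a3 were identical to Sprr2a1. Over the whole coding sequence of 252 bases, Sprr2a2 differed from Sprr2a1 at 0 bases and Sprr2a3 at 3. Of all stretches of 59 bases, the length of a read, in the transcripts of Sprr2a1, Sprr2a2 and Sprr2a3, 95.9%, 95.8% and 56.1% occurred also in another gene. The same share was 47.2% in Lce3f, 44.6% in Lce3d, 42.8% in Lce3e and 32.8% in Lce3c, but 0% in Sprr1a, Sprr1b, Sprr2f, Sprr2h and Sprr2k.

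Low shares of uniquely placed reads were also found among genes whose models overlap another gene model. Of all exon reads on a gene, summed over the samples, 0% were placed uniquely for Calm4 and Hrnr, 0.271% for Tchh, 1.67% for Rptn, 7.30% for Sbsn and 38.5% for Tgm1, although at most 6.55% of their 59-base stretches were found elsewhere. Calm4, Rptn and Sbsn overlap another gene model on their own strand, and Hrnr, Rptn, Tchh and Tgm1 overlap one on the opposite strand. Whether reads were counted by strand is not given. In all, 8 of the 57 genes had under 50% of their reads placed uniquely, namely these 6 with Sprr2a1 and Sprr2a2, whose models overlap each other, and 27 had at least 95%. Tgm3, which overlaps the model of Mir6339 on the opposite strand, had 100%, and the part of the overlaps in these shares was not tested. Values of these 8 genes, of Sprr2a3 and of Lce3c to Lce3f are less certain than the rest.

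**Figure D1:**
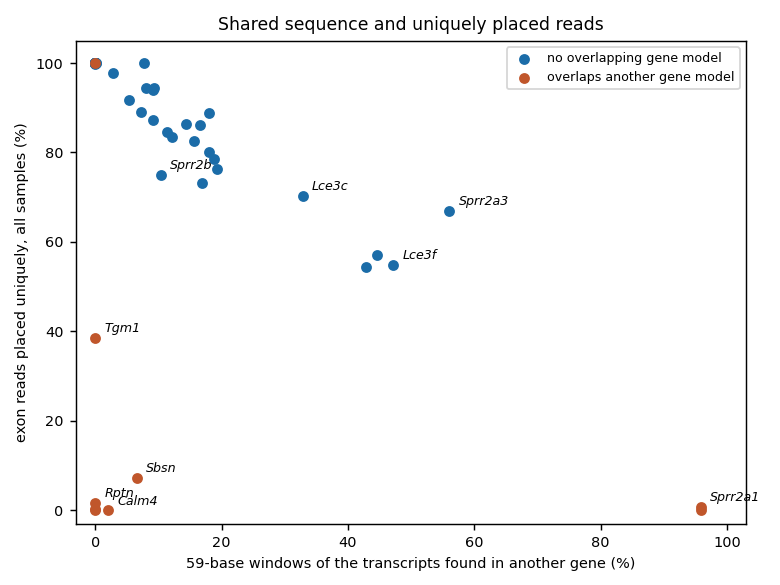
Share of 59-base stretches of each gene's transcripts that occur in another gene (horizontal axis, percent) against the share of its exon reads placed uniquely over all samples (vertical axis, percent), with 1 point per gene. Genes without an overlapping gene model run from the upper left to Lce3f and Sprr2a3, while of the genes with one, 6, such as Calm4 at 0% and Sbsn at 7.30%, lie low at the left, Sprr2a1 and Sprr2a2 at the lower right and Tgm3 at the upper left.

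The reads on exons numbered 13896807 to 20026084 per sample, and the 57 genes took a small share of them that varied widely. At 1 week the share was 0.156%, 0.107%, 0.308% and 0.438% in replicates 1 to 4, and at 3 weeks it was 0.0968%, 0.129%, 0.110% and 0.395%. The exact 95% interval was 0.0954% to 0.0982% for the lowest share and 0.435% to 0.441% for the highest, which covers counting error only. Replicates 3 and 4 of 1 week and replicate 4 of 3 weeks therefore stood apart from the others. RPKM values, in which reads are scaled by exon length and by the number of mapped reads, showed the same for single genes. Among the 42 genes with a mean of at least 1 RPKM, 1 week replicates 3 and 4 were both above replicates 1 and 2 in 32, and replicate 4 of 3 weeks was more than 3 times each other 3-week sample in 11. The median distance from the middle of the same time, on the log2(RPKM + 0.1) scale, was -0.76, -1.29, 0.79 and 1.14 in the 1-week replicates 1 to 4, and -0.43, 0.05, 0.00 and 0.80 in the 3-week ones.

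**Figure D2:**
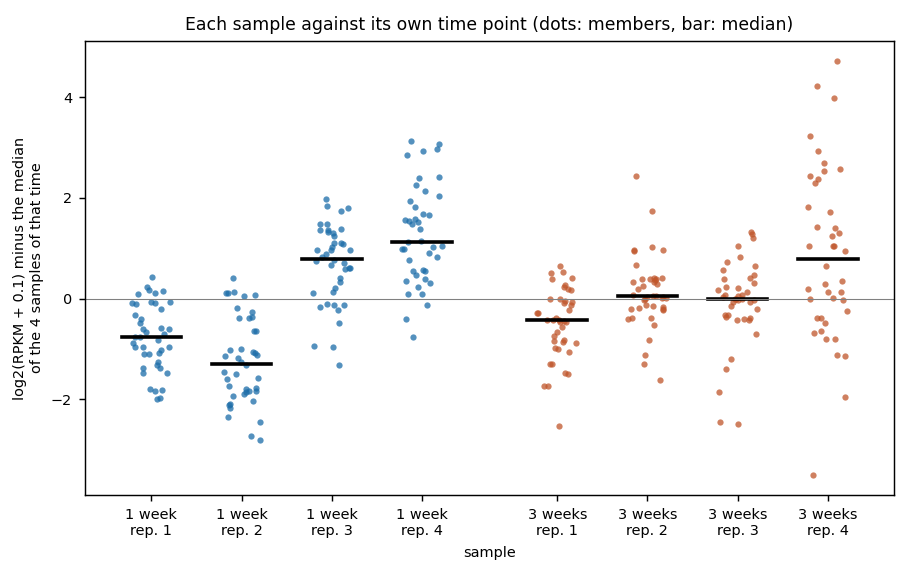
Each of the 42 genes with a mean of at least 1 RPKM in each sample, as log2(RPKM + 0.1) minus the median of the 4 samples of that time (vertical axis), with a bar at the median of the genes. At 1 week the bars of replicates 3 and 4 (0.79 and 1.14) lie above those of replicates 1 and 2 (-0.76 and -1.29), and 3 weeks replicate 4 has the widest spread of points.

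As the labels give KCs, basal KC genes were checked and were abundant. The summed RPKM of Krt5, Krt14, Itga6, Itgb4, Col17a1 and Trp63 was 12180 to 14440 at 1 week and 7105 to 8278 at 3 weeks. Most of each sum was Krt14 and Krt5. Itga6 and Trp63 were lower in each 3-week sample than in any 1-week sample. Itgb4 was at 92.5 to 137 RPKM at 1 week and at 47.5 to 245 RPKM at 3 weeks, and Col17a1 at 57.8 to 143 and 16.6 to 156 RPKM. The suprabasal keratins Krt1 and Krt10 together reached only 1.04 to 3.02 RPKM at 1 week and 0.524 to 1.07 at 3 weeks. Lists for other cells were also summed. Fibroblast genes (7 genes) reached at most 5.22 RPKM, endothelial genes (3 genes) 0.548, and leukocyte genes (4 genes, with Cd207 at 0 reads throughout) 1.62. Melanocyte genes (5 genes) gave 3.18 to 20.9 RPKM at 1 week and 1.26 to 5.5 at 3 weeks, and their Tyrp1 was at 2.10, 1.27, 7.07 and 9.54 RPKM in the 1-week replicates, thus higher in the same samples as the envelope genes. Hair follicle and sebaceous genes (6 genes) gave 65.0 to 114 and 28 to 49.9 RPKM, nearly all of it Scd1. Merkel cell genes (3 genes, with Snap25 at 0 reads) gave 0 to 0.0362 and 0.283 to 0.529 RPKM. Muscle genes (3 genes) gave 18.3 to 60.8 and 115 to 264 RPKM, nearly all of it Acta1. The part of these cells in the results was not tested. In bulk RNA, fewer KCs that express a gene and less RNA of it per KC cannot be told apart.

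The comparison between 1 and 3 weeks asked how the RNA levels of KCs shift with time in culture. After 3 weeks, RNA of some SPRRs and LCEs and of a few late differentiation proteins was lower, Casp14 was higher, and most tested members did not pass the test. Of the 57 genes, 37 had enough reads to be tested with edgeR's quasi-likelihood test across 12590 genes. At an adjusted p under 0.05, 9 of them were lower at 3 weeks, which is 24.3% against 17.0% of all tested genes, and 1 was higher, against 15.7% of all. The lower genes were Sprr1b, Sprr2f, Sprr2h, Lce3c, Lce3f, Rptn, Asprv1, Krtdap and Calm4, and the higher gene was Casp14. They include 3 of the 14 tested Sprr genes and 2 of the 5 tested Lce genes. The median log2 fold change (log2FC, 3 weeks over 1 week, given below with its standard error, SE) was -0.85 among the 37 genes, of which 23 had a negative and 14 a positive value, and 0.03 among all tested genes. A gene that is low at 3 weeks could pass the filter through its 1-week reads alone, so these counts describe the tested genes and not all members. At an unadjusted p under 0.05 (edgeR), 15 genes were lower and 3 higher. The share of all tested genes at that threshold was not taken, so these counts cannot be set against it.

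The number of calls depended on single samples. When 1 sample at a time was omitted, between 4 and 16 of the genes were lower and between 1 and 4 higher. Of the 10 called genes, only Krtdap, Lce3c, Sprr2f, Asprv1 and Casp14 were called in all 8 of these fits. Calm4, Lce3f, Rptn and Sprr1b lost their call without 1 week replicate 3 or 4 or without 3 weeks replicate 1, 2 or 4, and Rptn also without 3 weeks replicate 3. Sprr2h lost it without 1 week replicate 4 or 3 weeks replicate 1, 2 or 3. Without 3 weeks replicate 4, 41 members could be tested, 16 were lower, against 18.7% of all genes, and 4 were higher, against 17.8%. Then Cdsn, Cnfn, Crnn, Flg, Lce3d, Lce3e, Sprr2b, Sprr2d, Sprr2e, Sprr2j-ps and Tgm1 were also called lower and Lce1g, Lce1h and Sprr2k higher. Leaving out 1 week replicate 2 gave 14 lower of 40, against 14.0% of all genes. Leaving out 1 week replicate 4, 3 weeks replicate 1 or 3 weeks replicate 2 gave 4, 4 and 5 lower. These were 10.8%, 10% and 12.2% of the tested members, against 12.9%, 12.9% and 12.7% of all genes, so that in these fits the share of members was no higher than that of all genes.

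Other ways of testing moved the count as well. DESeq2 called 14 members lower, against 19.5% of all genes, and 2 higher, against 19.3%. It gave no adjusted p for 3 members, Sprr2d, Sprr3 and Tgm1, which therefore could not be called. Without a filter on low counts all 57 genes were tested, 19 were lower, against 10.5%, and 1 higher, against 7.86%. With at least 10 counts in every sample, 26 genes were left, 4 were lower, against 17.0%, and 1 higher, against 15.4%. On uniquely placed reads 7 of 31 were lower, against 18.7%, and 1 higher, against 14.8%. In limma on log2(RPKM + 0.1) or log2(RPKM + 1), 7 were lower, against 24.5% in both, and 1 higher, against 10.4% and 10.2%. With upper-quartile normalization there were 9 lower and 1 higher, against 16.8% and 14.7%. With a block on the replicate numbers 8 were lower, against 12.4%, and 1 higher, against 10.4%, and with a block on the 3 numbers that table names of both times share, 19 of 40 were lower, against 14.2%, and 1 higher, against 10.4%. The last fit leaves out 1 week replicate 2 and 3 weeks replicate 3, whose numbers are not shared. Casp14 was among the higher genes in each of these fits.

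**Figure D3:**
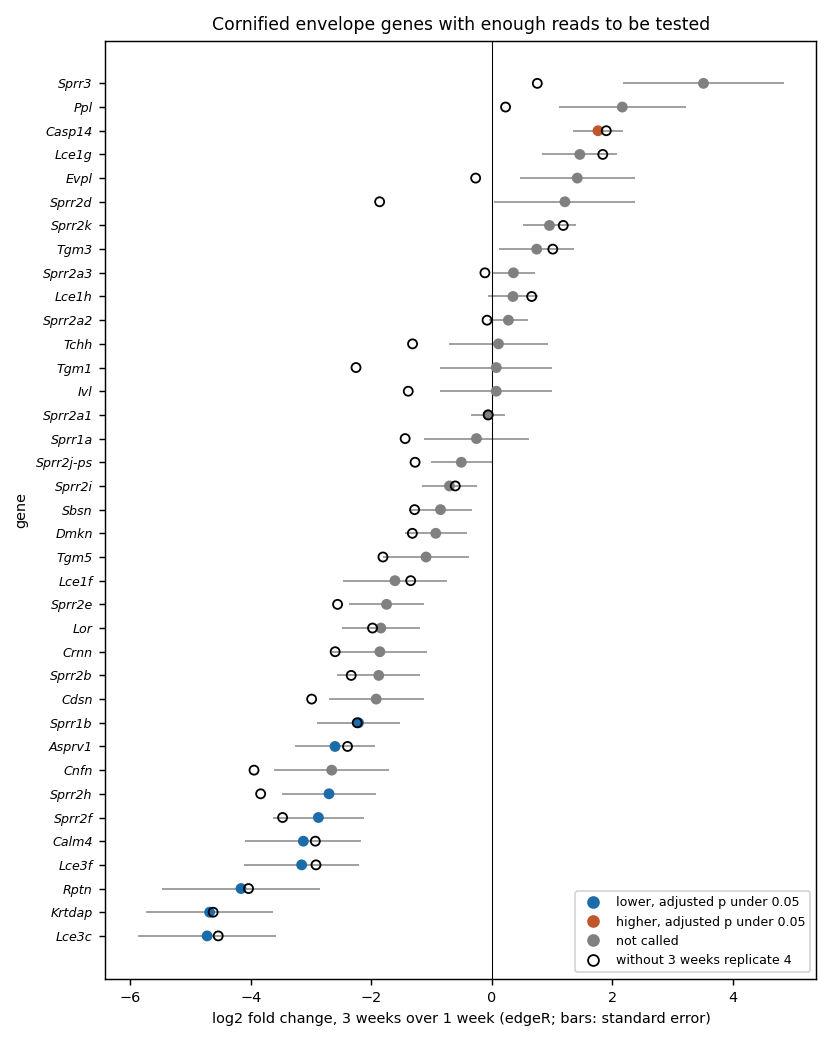
Log2FC of the 37 tested genes (horizontal axis, edgeR, bars are standard errors, n = 4 per time), ordered by value, with open circles for the fit without 3 weeks replicate 4. Lce3c (-4.72) and Krtdap (-4.68) lie farthest left in both fits, while Sprr2d moves from 1.21 to -1.86 and Sprr3 from 3.51 to 0.75.

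The Sprr1 genes held the most copies of the unit searched, while Sprr3, with 717 coding bases, held only 1 of this unit. Sprr1b was at 44.6, 28.1, 206 and 279 RPKM at 1 week and at 15.1, 30.9, 31.5 and 29.4 RPKM at 3 weeks. Its 3-week values lay near or below the lower 1-week samples, so that the groups overlapped at replicate 2 of 1 week. The log2FC was -2.21 (SE 0.69, adjusted p = 0.0361, edgeR), with adjusted p up to 0.102 when a sample was left out. The paralog Sprr1a, the gene with the highest mean level in the whole set, was at 141, 77.5, 588 and 828 RPKM at 1 week and at 79.6, 164, 151 and 856 RPKM at 3 weeks. Here the last sample of 3 weeks was as high as the highest of 1 week, and the log2FC of -0.26 (adjusted p = 0.851, edgeR) did not pass. Without that sample it was -1.44 (adjusted p = 0.178, edgeR). The paralogs thus parted in 3 weeks replicate 4, where Sprr1b stayed at 29.4 RPKM.

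All 11 Sprr2 genes could be tested, and 2 were called, both lower at 3 weeks, a share close to the 17.0% of all tested genes that were lower. Sprr2h was at 91.8, 52.8, 122 and 274 RPKM at 1 week and at 4.14, 11.9, 8.99 and 51.2 RPKM at 3 weeks, so each 1-week sample was above each 3-week sample. Its log2FC was -2.70 (SE 0.78, adjusted p = 0.0276, edgeR), and the adjusted p reached 0.0758 when a sample was left out. Sprr2f was low throughout and had 26, 23, 17 and 29 reads at 1 week and 0, 0, 5 and 5 reads at 3 weeks, where 0 reads allow up to 3. The groups did not overlap, and the log2FC was -2.88 (SE 0.75, adjusted p = 0.0178, edgeR). Such separation of the samples, with 1 week above, was seen in 4 of the 37 tested members (Krtdap, Lce3c, Sprr2f and Sprr2h) and in 26.2% of all tested genes.

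Sprr2b, Sprr2d and Sprr2e were each lowest of all in 3 weeks replicate 1 and, within 3 weeks, highest in replicate 4. Sprr2d was at 77.3, 74.3, 35.4 and 62.8 RPKM at 1 week and at 5.51, 14.2, 24.6 and 493 RPKM at 3 weeks. Its last sample was far above all others, and the log2FC was 1.21 (adjusted p = 0.461, edgeR) with it and -1.86 (adjusted p = 0.0219, edgeR) without it. Sprr2e was at 12.1, 13.4, 5.06 and 16.6 RPKM and then at 0.746, 1.97, 2.54 and 7.58 RPKM, with a log2FC of -1.75 (adjusted p = 0.0575, edgeR). Sprr2b was at 1.14, 0.619, 1.87 and 4.56 RPKM and then at 0.205, 0.543, 0.311 and 0.955 RPKM, with a log2FC of -1.88 (adjusted p = 0.0647, edgeR). Neither passed with all samples, and both did without 3 weeks replicate 4 (adjusted p = 0.00695 and 0.0460, edgeR).

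Sprr2k went the other way. It was at 9.65, 9.45, 3.61 and 5.34 RPKM at 1 week and at 9.18, 20.8, 12.6 and 6.09 RPKM at 3 weeks, with a log2FC of 0.96 (adjusted p = 0.124, edgeR) that reached 1.18 (adjusted p = 0.0462, edgeR) without 3 weeks replicate 4. At 1 week it was lower in replicates 3 and 4, in which Sprr1a, Sprr1b and Sprr2h were high. Sprr2i and Sprr2j-ps had log2FCs of -0.70 and -0.51, and neither passed (adjusted p = 0.265 and 0.474, edgeR).

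The near-identical Sprr2a genes took most of the reads on Sprr2 genes. Sprr2a2, which shares nearly all of its reads with Sprr2a1, was at 184, 126, 148 and 240 RPKM at 1 week and at 118, 159, 157 and 326 RPKM at 3 weeks. Sprr2a3, with more sequence of its own, was at 23.1, 17.7, 19.6 and 31.4 RPKM and then at 15.0, 20.7, 20.1 and 50.6 RPKM. Both followed the same course across the samples, with log2FCs of 0.27 and 0.36 (adjusted p = 0.551 and 0.480, edgeR). Sprr2a1 was listed at 1.5 to 3.36 RPKM at 1 week and 1.78 to 2.67 at 3 weeks, but how the shared reads were split between Sprr2a1 and Sprr2a2 cannot be read from these values. The sum over Sprr2a1 to Sprr2a3 is less touched by that split, and was 209, 145, 170 and 275 RPKM at 1 week and 134, 183, 179 and 379 RPKM at 3 weeks. The other 8 Sprr2 genes together were at 208, 164, 180 and 382 RPKM at 1 week and at 22.6, 56.5, 56.4 and 573 RPKM at 3 weeks. In 3-week replicates 1 to 3 the first sum was thus within its 1-week range or just below it, while the second was below its range, and in replicate 4 both were above. Of the second sum in replicate 4, 573 RPKM, 493 were Sprr2d alone. Sprr2h was at 51.2 RPKM there, below each 1-week sample, so the second sum does not describe its genes alike.

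Sprr3, which is best known from internal stratified epithelia such as the oesophagus, was at 0.688, 0.119, 2.05 and 0.789 RPKM at 1 week and at 0.439, 2.29, 1.25 and 33.6 RPKM at 3 weeks. A single sample carried its log2FC of 3.51 (SE 1.34, adjusted p = 0.0727, edgeR), which was 0.75 (adjusted p = 0.493, edgeR) without it. Sprr4 was near its limit of detection and had 4 reads in 1 week replicate 4, 1 read in 3 weeks replicate 2, 2 reads in 3 weeks replicate 4 and 0 in the rest.

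**Figure D4:**
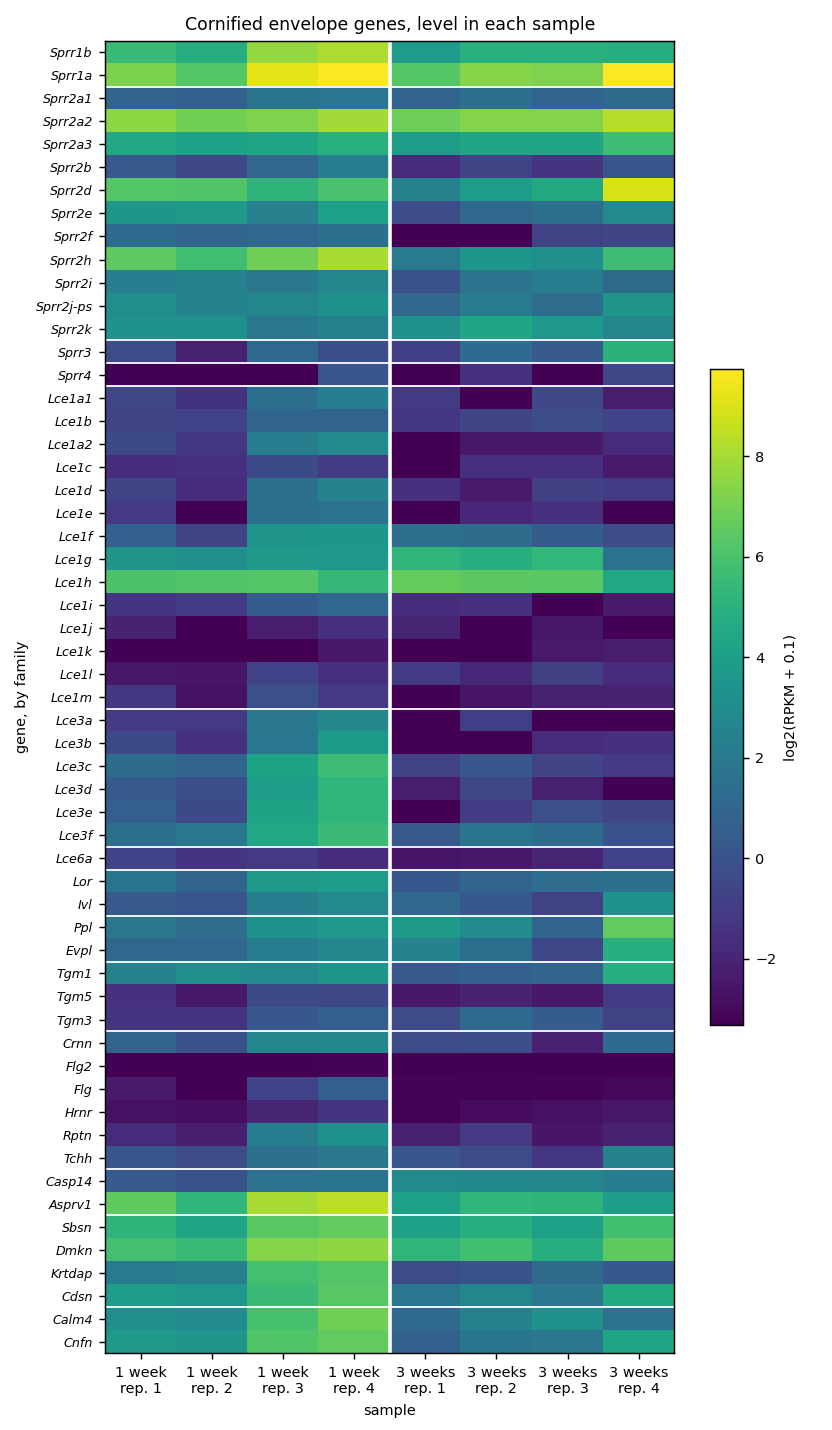
Level of the 57 genes in each of the 8 samples as log2(RPKM + 0.1) (colour), in rows by family and in columns by time and replicate. Sprr1a and Sprr2a2 are high in all columns, the Lce3 genes are high only in 1 week replicates 3 and 4, and Sprr2d and Ppl are highest in 3 weeks replicate 4.

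LCE proteins are small proteins rich in glycine and cysteine that are added to the envelope late. The 14 Lce1 genes differed greatly in level. Lce1h alone was at 67.9, 73.9, 77.6 and 41.5 RPKM at 1 week and at 102, 86.7, 83.1 and 21.9 RPKM at 3 weeks, and Lce1g was at 11.1, 9.13, 12.7 and 12.5 RPKM and then at 37.3, 28.6, 40.5 and 2.80 RPKM. Both were lowest in 3 weeks replicate 4, the sample in which Sprr1a and Sprr2d were highest, and both were higher in the other 3-week samples than in any 1-week sample. The log2FC was 0.35 for Lce1h (adjusted p = 0.558, edgeR) and 1.46 for Lce1g (adjusted p = 0.103, edgeR). Without 3 weeks replicate 4 both passed, at 0.66 (adjusted p = 0.0353, edgeR) and 1.84 (adjusted p = 0.000532, edgeR). Lce1f, the other tested Lce1 gene, was at 1.52, 0.533, 10.7 and 11.5 RPKM and then at 2.58, 2.34, 1.34 and 0.748 RPKM (log2FC -1.61, adjusted p = 0.184, edgeR). The 11 untested Lce1 genes had at most 7.14 RPKM in any sample. In Lce1a2 and Lce1i each 1-week sample was above each 3-week sample, as in 26.2% of all tested genes. This rests on few reads, which were 9, 5, 47 and 90 and then 0, 1, 1 and 2 for Lce1a2. For Lce1i they were 4, 6, 14 and 24 and then 3, 3, 0 and 1.

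The 6 Lce3 genes shared 1 course. Their summed level was 8.41, 7.42, 82.7 and 196 RPKM at 1 week and 1.72, 5.82, 3.97 and 2.05 RPKM at 3 weeks, so that all 3-week samples were below all 1-week samples and replicates 3 and 4 of 1 week were far above the rest. Lce3c (chromosome 3, 92944486 to 92945733) was at 2.32, 1.80, 18.7 and 51.1 RPKM at 1 week and at 0.473, 1.07, 0.537 and 0.360 RPKM at 3 weeks. Its log2FC of -4.72 (SE 1.15, adjusted p = 0.0132, edgeR) was the lowest among the tested members, and it stayed between -5.12 and -3.42 when a sample was left out. Lce3f was at 2.49, 3.58, 22.8 and 48.2 RPKM and then at 1.14, 3.29, 2.29 and 0.891 RPKM, with overlapping groups and a log2FC of -3.16 (SE 0.95, adjusted p = 0.0319, edgeR). Its adjusted p reached 0.0931 when a sample was left out. Lce3a, Lce3b, Lce3d and Lce3e, with 3 to 16 reads in 1 week replicates 1 and 2, did not pass the filter on low counts with all samples. Without a filter on low counts all 6 were called lower, against 10.5% of all genes in that fit, but reads on these genes are partly shared, so they are not independent observations. Lce6a, which lies apart from these groups, had 1 to 8 reads per sample.

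Loricrin is the main protein of the mature envelope and involucrin an early one. Lor was at 3.28, 1.75, 12.8 and 14.6 RPKM at 1 week and at 1.12, 1.78, 2.43 and 2.68 RPKM at 3 weeks, with a log2FC of -1.84 (SE 0.65, adjusted p = 0.0566, edgeR). Ivl was at 1.15, 0.985, 4.68 and 7.61 RPKM and then at 2.04, 1.11, 0.507 and 10.3 RPKM, with a log2FC of 0.07 (adjusted p = 0.962, edgeR). For Lor the last sample of 3 weeks was like the other samples of that time, and for Ivl it was the highest of all. The plakins behaved as Ivl did. Ppl was at 3.70, 2.48, 10.04 and 12.2 RPKM at 1 week and at 13.1, 7.65, 1.76 and 95.4 RPKM at 3 weeks, and Evpl at 2.07, 1.98, 4.75 and 6.46 RPKM and then at 5.41, 2.57, 0.582 and 29.2 RPKM. At 3 weeks both had the order replicate 4, 1, 2, 3. Their log2FCs of 2.16 (adjusted p = 0.147, edgeR) and 1.42 (adjusted p = 0.287, edgeR) did not pass, and without 3 weeks replicate 4 they were 0.23 and -0.27.

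Transglutaminases form the bonds between envelope proteins. Tgm1, the enzyme anchored at the membrane, was at 5.65, 8.69, 7.20 and 11.8 RPKM at 1 week and at 1.22, 1.5, 1.85 and 27.9 RPKM at 3 weeks. It thus had a narrow range at 1 week and split into 3 low samples and 1 high sample at 3 weeks, with a log2FC of 0.07 (adjusted p = 0.962, edgeR) that became -2.25 (adjusted p = 0.00109, edgeR) without the high one. Tgm3, which is active in hair and late epidermis, was at 0.294 to 1.44 RPKM at 1 week and 0.477 to 2.07 RPKM at 3 weeks, and Tgm5 at 0.0769 to 0.662 and 0.0772 to 0.388 RPKM. Their log2FCs were 0.74 and -1.09, and neither passed (adjusted p = 0.393 and 0.270, edgeR).

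The fused S100 proteins, which combine a calcium-binding S100 domain with long repeats, differed in RNA level. Flg, Flg2 and Hrnr were barely present, and Rptn, Crnn and Tchh reached 9.19, 6.14 and 5.71 RPKM in their highest samples. Flg, the gene of filaggrin, had 26, 1, 106 and 376 reads at 1 week and 2, 1, 2 and 5 reads at 3 weeks, at most 1.47 RPKM, and was not tested with all samples. Flg2 had 3 reads in 1 sample, 1 read in another and 0 in the rest, and Hrnr was at most at 0.299 RPKM. Rptn, the gene of repetin, was at 0.203, 0.117, 4.55 and 9.19 RPKM at 1 week and at 0.129, 0.367, 0.0734 and 0.131 RPKM at 3 weeks, so only 1 week replicates 3 and 4 stood above the rest. Its log2FC was -4.16 (SE 1.31, adjusted p = 0.0375, edgeR), with adjusted p up to 0.104 when a sample was left out, and it could not be tested on uniquely placed reads. Crnn and Tchh were at 0.859 to 6.14 and 0.725 to 3.48 RPKM at 1 week and at 0.131 to 2.12 and 0.324 to 5.71 RPKM at 3 weeks, with log2FCs of -1.86 (adjusted p = 0.101, edgeR) and 0.11 (adjusted p = 0.935, edgeR).

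Asprv1 and Casp14 both encode proteases that act in the processing of filaggrin, and their RNA levels moved in opposite directions. Asprv1 (chromosome 6, 86628164 to 86629710) was at 93.4, 38.2, 265 and 342 RPKM at 1 week and at 16.5, 39.0, 36.3 and 15.3 RPKM at 3 weeks. Only replicate 2 of 1 week lay within the 3-week range, and the log2FC was -2.60 (SE 0.67, adjusted p = 0.0166, edgeR). Casp14 (chromosome 10, 78711991 to 78718294) was at 1.23, 0.892, 2.97 and 3.32 RPKM at 1 week and at 7.40, 6.84, 6.31 and 4.69 RPKM at 3 weeks. Each 3-week sample was above each 1-week sample, which held for no other tested member and for 10.8% of all tested genes. Its log2FC was 1.76 (SE 0.41, adjusted p = 0.0107, edgeR), between 1.5 and 2.08 when a sample was left out. At 1 week Casp14 was higher in replicates 3 and 4, as most members were, so its direction between the times was opposite to theirs while its order within 1 week was alike.

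Krtdap encodes a small secreted protein of differentiating KCs. It was at 4.25, 5.08, 57.6 and 76.0 RPKM at 1 week and at 0.711, 0.896, 2.15 and 1.10 RPKM at 3 weeks, with all 1-week samples above all 3-week samples. The log2FC was -4.68 (SE 1.05, adjusted p = 0.00917, edgeR), and the adjusted p stayed at or below 0.0310 when a sample was left out. Its neighbours on chromosome 7 encode the secreted proteins suprabasin and dermokine. Sbsn was at 36.3, 19.4, 83.8 and 97.9 RPKM and then at 17.6, 30.1, 17.2 and 54.5 RPKM, and Dmkn was at 56.6, 43.8, 163 and 190 RPKM and then at 37.4, 55.6, 28.1 and 94.8 RPKM. These 2 had the same order of samples at 1 week as Krtdap except for replicates 1 and 2, but much smaller log2FCs of -0.85 and -0.93, which did not pass (adjusted p = 0.247 and 0.199, edgeR). Cdsn, the gene of corneodesmosin, which holds corneocytes together, was at 12.6 to 80.2 RPKM at 1 week and at 3.37, 6.04, 3.57 and 24.7 RPKM at 3 weeks (log2FC -1.92, adjusted p = 0.0921, edgeR).

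Cnfn, the gene of cornifelin, another envelope component, was at 12.9, 11.1, 73.5 and 98.8 RPKM at 1 week and at 1.57, 3.30, 3.47 and 20.2 RPKM at 3 weeks. Its log2FC of -2.66 (SE 0.95) narrowly missed the threshold (adjusted p = 0.0595, edgeR), and without 3 weeks replicate 4 it was -3.95 (adjusted p = 0.0115, edgeR). Calm4, a calmodulin-like gene of the epidermis, was at 8.99, 7.68, 61.0 and 126 RPKM and then at 2.11, 5.18, 9.96 and 2.97 RPKM. The groups overlapped in 1 sample of 3 weeks, and the log2FC was -3.13 (SE 0.96, adjusted p = 0.0343, edgeR), with adjusted p up to 0.0993 when a sample was left out. None of its reads was placed uniquely, so the value cannot be assigned to Calm4 alone. The gene overlaps another gene model and shares 2.10% of its 59-base stretches with another gene. The part of either was not tested.

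**Figure D5:**
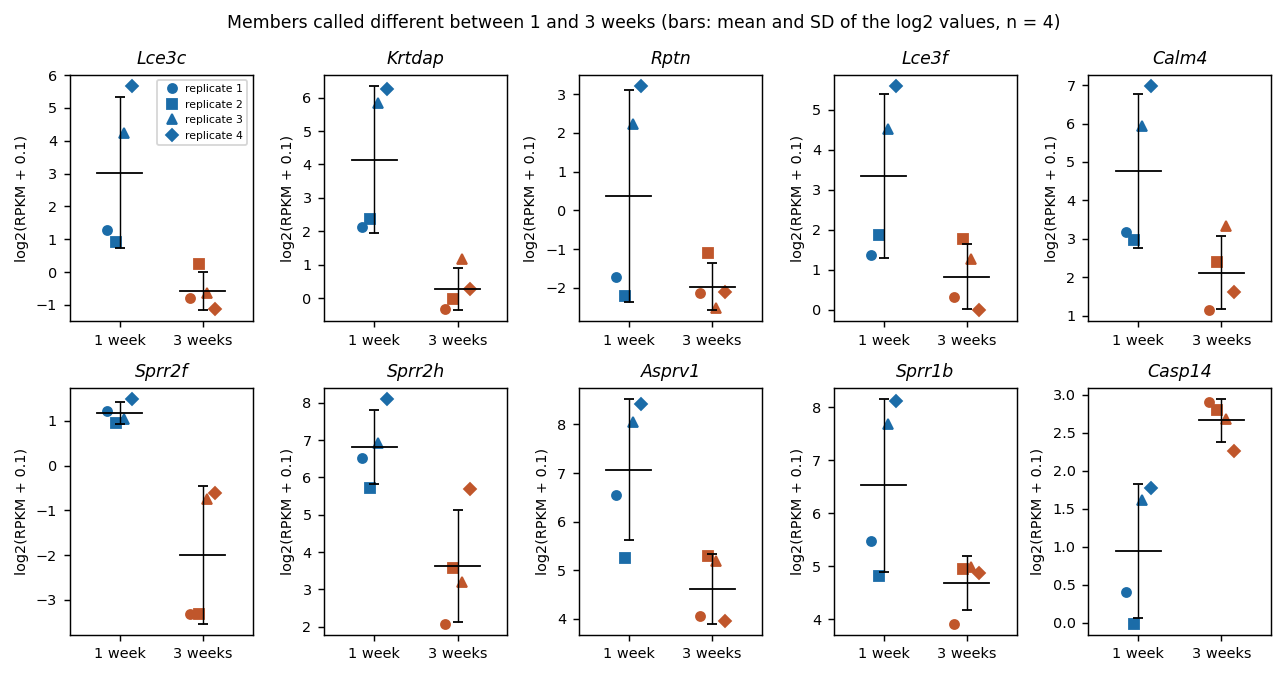
Log2(RPKM + 0.1) in each sample of the 10 genes called between 1 week (blue) and 3 weeks (orange), with symbols for replicates 1 to 4 and bars for mean and SD of these log2 values. In most of the 9 lower genes the triangle and diamond of 1 week (replicates 3 and 4) lie far above its circle and square, and Casp14 alone is higher at 3 weeks.

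The regions before the start sites were compared, because most of these genes share a locus but did not share 1 course. RefSeq promoters on GRCm38.p6, from 250 bases before to 50 after the start, were at hand for 53 of the 57 genes and not for Ppl, Evpl, Sprr2j-ps and Lce1f. The letters TGANTCA, the binding sequence of AP-1 factors, occurred in 18 of the 53 (34.0%) and in 8.97% of all 27025 genes with a promoter. TATAAA occurred in 22 (41.5%) and in 15.7% of all. GCCNNNGGC, as bound by AP-2, was found in 3 (5.66%) and in 18.6% of all, and AACCNGTT, as bound by Grainyhead-like factors, in 2 (3.77%) and in 2.35%. Both strands were searched. For genes that took different courses, the 200 bases before the start are shown 5′ to 3′ along the gene, with TGANTCA and TATAAA in capitals. They are Sprr2h (chr3:92385485-92385684, plus strand) and Krtdap (chr7:30787705-30787904, plus strand), which were lower at 3 weeks, Sprr2k (chr3:92432382-92432581, plus strand), which was not called, and Casp14 (chr10:78718294-78718493, minus strand), which was higher.
Sprr2h: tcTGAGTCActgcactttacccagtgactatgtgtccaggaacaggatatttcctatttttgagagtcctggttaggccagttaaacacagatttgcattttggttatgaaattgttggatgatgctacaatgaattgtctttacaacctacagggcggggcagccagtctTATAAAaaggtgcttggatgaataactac
Krtdap: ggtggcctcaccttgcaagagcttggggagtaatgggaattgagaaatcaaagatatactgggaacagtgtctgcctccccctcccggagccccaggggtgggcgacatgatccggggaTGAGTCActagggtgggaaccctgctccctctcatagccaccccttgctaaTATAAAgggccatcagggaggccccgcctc
Sprr2k: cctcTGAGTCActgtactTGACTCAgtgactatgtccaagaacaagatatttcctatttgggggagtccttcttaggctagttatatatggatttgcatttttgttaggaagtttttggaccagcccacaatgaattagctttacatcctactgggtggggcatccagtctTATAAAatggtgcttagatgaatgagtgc
Casp14: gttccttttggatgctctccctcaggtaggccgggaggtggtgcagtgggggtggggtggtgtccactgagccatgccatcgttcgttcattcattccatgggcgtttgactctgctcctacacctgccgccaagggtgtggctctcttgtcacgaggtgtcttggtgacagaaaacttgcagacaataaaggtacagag
Sprr2h had TGANTCA at position -198 and TATAAA at -29, and Sprr2k had TGANTCA at -196 and -182 and TATAAA at -29, counted from the start to the first base of the match. In Sprr2b, Sprr2d, Sprr2e, Sprr2f and Sprr2i the positions were within the same few bases, whereas Sprr2a1 to Sprr2a3 and all Lce genes with a promoter had no TGANTCA in the 300 bases. The windows of Sprr2a2 (92250397 to 92250696) and Sprr2a3 (92285054 to 92285353) do not hold the first base of the counted gene model. That base is 92215920 for Sprr2a2 and 92285417 for Sprr2a3. Neither window of Tgm1 (55713443 to 55713742 and 55713039 to 55713338, minus strand) holds the first base of its model, 55713926. Krtdap had TGANTCA at -81, Sprr1b at -111, Ivl at -116 and Lor at -48, and Casp14 and Asprv1 had none. Of the 18 genes with a match, 16 were tested, 5 were lower and 0 higher, with a median log2FC of -1.80. Of the 35 without, 17 were tested, 4 were lower and 1 higher, with a median of 0.07. Among all tested genes 17.0% were lower and 15.7% higher. Without 3 weeks replicate 4 the median was -2.23 with a match and -1.94 without. That fit also tested Flg, which has a match, and Hrnr, Lce3d and Lce3e, which have none. The medians with and without that sample are thus not taken over the same genes, and cannot be compared directly. Several of the promoters with a match are copies of each other, so the genes are not independent.

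Other genes that serve cornification, namely keratins, desmosomal proteins, lipid enzymes, proteases and further envelope components, gave a mixed picture. Of 45 listed genes 39 were tested, 13 were lower and 5 higher at 3 weeks, against 17.0% and 15.7% of all tested genes, with a median log2FC of -0.05. The 5 lower genes with the smallest adjusted p were Blmh, Lgals7, Ctsc, Elovl4 and Ly6d. Blmh, an enzyme that degrades filaggrin peptides to amino acids, went from 24 ± 3.72 to 6.62 ± 0.673 RPKM (SD, n = 4), a log2FC of -1.69 (adjusted p = 0.000281, edgeR). Lgals7, the gene of a galectin of stratified epithelia, went from 65.0 ± 25.4 to 4.74 ± 2.11 RPKM, with -3.59 (adjusted p = 0.000496, edgeR). The protease gene Ctsc, the fatty acid elongase gene Elovl4 and Ly6d had log2FCs of -1.0, -2.24 and -2.17. The higher genes included Tgm2, Ctsd, Smpd1 and Anxa1. Tgm2, the gene of tissue transglutaminase, was at 0.566 to 3.22 RPKM at 1 week and at 16.1 to 40.1 RPKM at 3 weeks, with a log2FC of 3.97, unlike Tgm1, Tgm3 and Tgm5, none of which passed. The lysosomal enzyme genes Ctsd and Smpd1 had log2FCs of 1.30 and 0.63, and Anxa1, the gene of an annexin found in envelopes, 1.30. The other 8 lower genes were Sdr9c7, Klk7, Krt1, Dsg1a, Abca12, Pnpla1, Dsg1b and Padi3. In Klk7, the gene of a corneodesmosome-cleaving kallikrein, the values of 9.01, 5.05, 74.6 and 134 RPKM at 1 week were again higher in replicates 3 and 4.

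Among 44 genes of transcription factors and regulators of KC differentiation, 42 were tested, 4 were lower and 4 higher, with a median log2FC of -0.15. Both shares were below those of all tested genes. Lower were Pou3f1, the gene of a POU factor of differentiating KCs, and Ovol1, the gene of a zinc finger repressor, with log2FCs of -2.37 (adjusted p = 0.00293, edgeR) and -2.33 (adjusted p = 0.00472, edgeR), as well as Gata3 (-1.08) and Tfap2c (-0.38). Higher were the nuclear receptor genes Rora (1.20) and Nr1h2 (0.41) and the AP-1 genes Jund (0.63) and Fosl2 (0.81). Ovol1 was at 4.6, 5.09, 9.56 and 16.7 RPKM at 1 week and at 1.33, 2.29, 0.903 and 1.95 RPKM at 3 weeks, again with replicates 3 and 4 of 1 week on top. Pou3f1 was low, at 0.505 to 0.928 RPKM and then at 0.0790 to 0.230 RPKM. The number of lower genes in this list was 7 without 3 weeks replicate 4, and 2 without 1 week replicate 4, 3 weeks replicate 1 or 3 weeks replicate 2, and that of higher genes was 2 without 1 week replicate 1.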

How the data were processed

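For each of the 8 samples the authors deposited a table of genes. The authors trimmed the reads, aligned them to GRCm38 in the CLC Genomics Workbench with its default RNA-seq settings and deposited total and unique exon reads per gene as raw counts. The annotation release is not given in the sources used here. They also deposited RPKM values, written with decimal commas, which were read as numbers. Samples were grouped by the labels. The members are defined by name alone, but they, the gene lists and the tests were picked with earlier results of these data known.

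The main test used total exon reads of the whole table in edgeR 4.0.16, run in R 4.3.3 (filterByExpr, TMM, glmQLFit and glmQLFTest). Benjamini-Hochberg adjustment was made over all 12590 tested genes, with a threshold of 0.05. No pairing was used, since the general statistics section of the study names unpaired tests. As the study used the same batches at both times, the test ignores a pairing that the labels do not resolve. Standard errors came from the F statistics. On simulated counts for 12447 genes, 89 of 100 genes changed 4-fold and 31 of 100 changed 2-fold were recovered, with 3 false calls. No other genes were changed there, whereas 2146 genes were called lower and 1981 higher in the data. The adjustment therefore acts differently, and these rates need not hold for the data. Each library was kept, as the smallest chi-square per degree of freedom between replicates was 15.5.

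Genes described with values are all called members, the 12 with the highest mean RPKM, textbook components, the highest of each Sprr and Lce group, and, from each further list, the 5 with the smallest adjusted p per direction. Other members and list genes were described after their values were seen. Alternatives were upper-quartile normalization, DESeq2 1.42.0, no filter, a minimum of 10 counts per sample, uniquely placed reads, limma 3.58.1 on log2(RPKM + 0.1) and log2(RPKM + 1), blocks, and leaving out each sample. Sequences came from GENCODE M21 and RefSeq, both on GRCm38, and shared 59-base stretches were counted over all transcripts with Python 3.11.15. Figures were drawn with matplotlib 3.10.9. One gene counted in the list of other cornification genes is not reported by name here.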

Additional observations from a re-analysis of the deposited data

Results flagged for a closer look

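In 12 of 58 groups of 4 samples, 1 sample lay apart from the other 3. Its gap divided by the range was above Dixon's 95% critical value. That value flags about 5% of groups only if they are independent and normally distributed. These groups are unlogged RPKM values of genes that vary together in the same samples, so the count cannot be set against chance. In 10 of the 12 the sample was 3 weeks replicate 4, as the highest of its time. It had 856 RPKM of Sprr1a against 79.6, 164 and 151 in the others, 493 RPKM of Sprr2d against 5.51, 14.2 and 24.6, and 51.2 RPKM of Sprr2h against 4.14, 11.9 and 8.99. It also had 50.6 RPKM of Sprr2a3 against 15.0, 20.7 and 20.1, and 33.6 RPKM of Sprr3 against 0.439, 2.29 and 1.25. Outside the Sprr genes it had 20.2 RPKM of Cnfn against 1.57, 3.30 and 3.47, and 10.3 RPKM of Ivl against 2.04, 1.11 and 0.507. For the plakins it had 95.4 RPKM of Ppl against 13.1, 7.65 and 1.76, and 29.2 RPKM of Evpl against 5.41, 2.57 and 0.582. For Tgm1 it had 27.9 RPKM against 1.22, 1.5 and 1.85.

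The same sample was the lowest of its time for 9 of the 42 members with a mean of at least 1 RPKM, namely Asprv1, Casp14, Lce1f, Lce1g, Lce1h, Lce3c, Lce3d, Lce3f and Sprr2k. Over all genes its mean correlation with the other 3-week samples was 0.940, the lowest of the 8 samples. The number in its table name, 90, is also that of 1 week replicate 4, the highest of its time for 37 of these 42 members. Whether both samples came from the same preparation is not told by the labels.

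The other 2 were Sprr1b, with 15.1 RPKM in 3 weeks replicate 1 against 30.9, 31.5 and 29.4, and Sprr4, with 0.982 RPKM in 1 week replicate 4 against 0 in the rest, which rests on 4 reads.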

How the results depend on the processing

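Lce3d, Flg, Lce3b, Lce1a2 and Lce3e, untested with the filter, had lower log2FCs without one than Lce3c and Krtdap. Members called lower numbered 9 with all samples, 14 in DESeq2, 19 of 57 without a filter, 4 of 26 with at least 10 counts in every sample and 4 to 16 with a sample left out; those called higher numbered 1, 2 in DESeq2 and 1 to 4 with a sample left out. The filter of 10 counts left Krtdap, Lce3c, Lce3f, Rptn and Sprr2f untested, and unique reads left Calm4 and Rptn untested. In limma on log2(RPKM + 0.1) 3089 genes in all were lower and 1313 higher, against 2146 and 1981, with a median of -0.16. Of 737 values of 44 named genes under the alternatives, 628 kept direction and side of the threshold, 67 lost the call, 18 gained one and 24 changed direction. In the last, the cause was not tested. The 628 include the DESeq2 values of Sprr2d, Sprr3 and Tgm1, which kept their direction but had no adjusted p. In limma with pseudocounts 0.1 and 1, Sprr2d was at -0.93 and -0.86, Ivl at -0.40 and -0.23, Tgm1 at -1.31 and -0.97, and Lce1h at -0.00 with 0.1. With a sample left out, values ranged from -0.08 to 0.46 for Sprr2a2, -0.11 to 0.56 for Sprr2a3, -1.86 to 1.62 for Sprr2d, -1.44 to 0.35 for Sprr1a, -1.39 to 0.75 for Ivl, -0.27 to 1.80 for Evpl and -2.25 to 0.44 for Tgm1. For the differentiation factors, limma with either pseudocount called 7 lower and 1 higher, and leaving out a sample gave 2 to 7 lower and 2 to 4 higher.

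Whether same-numbered samples belong together was checked by the correlation of their deviations from the group means. It was -0.29 to 0.27 over the 4 replicate numbers and also over the 3 shared table numbers. Samples with unlike replicate numbers gave values such as -0.31 (1 week replicate 4, 3 weeks replicate 3) and 0.50 (1 week replicate 1, 3 weeks replicate 3). The check therefore cannot decide the pairing, and the replicate numbers were not taken to pair the samples. In the table names, replicate 2 carries 47 at 1 week and 49 at 3 weeks, and replicate 3 carries 49 and 57. With the replicate block, 8 members were lower and 1 higher, 5 of the 10 calls were kept, those of Asprv1 (-2.34, adjusted p = 0.0552, edgeR), Calm4, Lce3f, Rptn and Sprr1b were not, Sprr2d was at -0.93, Ivl at -0.13 and Tgm1 at -1.27, and 2 differentiation factors were higher. The study states that the same batches were used at both times. Replicate 1 carries 46 and replicate 4 carries 90 at both times, and 1 week replicate 3 and 3 weeks replicate 2 carry 49. The table names of both times thus share the numbers 46, 49 and 90. With a block on these, in a fit that also leaves out 1 week replicate 2 and 3 weeks replicate 3, 19 members were lower and 1 higher of 40, all 10 calls were kept, Sprr2d was at -0.78, Ivl at -0.12 and Tgm1 at -1.01, and 3 of the other cornification genes were higher. Without 1 week replicate 2 alone and with no block, 14 members were lower, and without 3 weeks replicate 3 alone 10, so the part of the block cannot be told apart from that of the samples left out.

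Depth limited the Lce1, Lce3, Flg and Sprr4 results, and 20 of the 57 genes had too few reads for the test. With 4 samples per time, a change of 2-fold was often missed in the simulated counts, whose rates need not hold for the data.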
